A study of Mus musculus with 6 samples.

Results

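The circadian clock genes are described here as read in mouse liver and liver tumour. They were chosen by name, as the 10 core clock and clock output genes Per1, Per2, Per3, Cry1, Cry2, Arntl (also called Bmal1), Clock, Npas2, Dbp and Tef, whatever their values, to ask whether the RNA samples set against each other differed in clock phase, as samples collected at different times of day would. All 10 were found on the arrays, each with 1 probe and 1 spot, among 9993 genes that could be named. All 10 passed the filter on dim probes. They were named by the transcript the probe was designed on, except Cry2, named by the symbol in its probe's description.

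RNA came from mice of the C3H/HeNCrlBR(C3He) background at 39 weeks of age, on 6 Agilent 2-colour arrays in 3 pairs. In each pair the dyes Cy3 and Cy5 were swapped between array 1 and array 2. The RNAs were tumour of wild-type (WT) livers given diethylnitrosamine (DEN), which starts liver tumours, and then phenobarbital (PB), which promotes them. The others were WT liver given DEN and PB, liver of mice without the nuclear receptor CAR (CAR-KO) given DEN and PB, and CAR-KO liver given DEN alone. DEN was common to every RNA, and the CAR-KO liver given DEN and PB was on all 6 arrays. The pairs set WT liver against CAR-KO liver, CAR-KO liver given DEN and PB against CAR-KO liver given DEN alone, and WT tumour against CAR-KO liver. An indirect comparison of WT tumour with WT liver is the difference between ratios to the shared CAR-KO RNA. The labels give no time of day, no sex, no number of animals and no statement on pooling. The CAR-KO RNA is shared by its label, and the indirect comparison takes it as the same on all arrays. Left unsaid is if arrays, within a pair or between pairs, carried the same extracts. The p-values therefore reflect how far dye-swapped arrays differ, which may be technical alone.

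The clock of mammalian cells is a loop of transcription factors. CLOCK, or its relative NPAS2, pairs with ARNTL (BMAL1) at DNA motifs called E-boxes and drives the Per and Cry genes, whose proteins return to block that pair. The same pair drives the nuclear receptors REV-ERB, which with the ROR receptors set the rhythm of Arntl through a second motif, and the factors DBP and TEF, which act through D-box motifs on rhythmic genes of the liver. Dbp and the Per genes peak at opposite times of day from Arntl and Npas2 in mouse liver, and their RNA levels there swing widely over the day.

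The motifs of this loop were looked for in RefSeq promoter windows of assembly GRCm38.p6, from 250 bases before to 50 bases after a gene's start, on both strands. For 9 of the 10 genes 14 windows were held, some genes having several starts (Per2 had none here). The E-box CACGTG was in 4 of 14 windows, 1 each of Per1 and Cry1 and 2 of Tef, against 7.15% of 32851 windows of all genes. The related E-prime box CACGTT was in 2 of 14, of Cry1 and Cry2, against 4.68% of all windows. A D-box, TTACGTAA or TTATGTAA, was in 1 of 14, of Per3, against 1.06%, and the ROR element core, TAGGTCA or TGGGTCA, in 1 of 14, of Arntl, against 6.45%. Matches describe letters only and say nothing of binding in these livers. The stretches below show where on each promoter the loop's motifs lie, with the motif in capitals and each written 5′ to 3′ on the gene's own strand. They are Per1 at chr11:69098726-69098845 (plus strand), Cry1 at chr10:85185062-85185181 (minus), Tef at chr15:81802489-81802608 (plus), Per3 at chr4:151044766-151044915 (minus) and Arntl at chr7:113207531-113207557 (plus).
Per1: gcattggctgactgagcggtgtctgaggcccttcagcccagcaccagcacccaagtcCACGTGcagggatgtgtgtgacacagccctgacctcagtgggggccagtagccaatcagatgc
Cry1: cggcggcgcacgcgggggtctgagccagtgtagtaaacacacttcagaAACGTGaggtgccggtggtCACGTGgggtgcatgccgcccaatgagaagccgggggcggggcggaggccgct
Tef: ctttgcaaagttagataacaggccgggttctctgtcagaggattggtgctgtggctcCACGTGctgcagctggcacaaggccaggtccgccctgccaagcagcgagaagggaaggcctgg
Per3: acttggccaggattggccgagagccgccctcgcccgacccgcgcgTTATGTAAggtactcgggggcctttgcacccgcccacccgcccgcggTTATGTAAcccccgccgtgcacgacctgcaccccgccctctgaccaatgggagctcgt
Arntl: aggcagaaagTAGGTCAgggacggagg
In the Cry1 stretch the E-prime box, read here on its other strand, stands upstream of the E-box. Per3 carries the same D-box letters at 2 places, and the Arntl motif lies after the gene's start.

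The median Cy3 signal per array, before any background was taken off, lay between 185 and 484 and the median Cy5 signal between 125 and 408. Array 2 of the tumour pair had a local background of 288 and 299 where the other arrays had 53 to 62. The hepatocyte markers Ttr and Apoa1 were well above background in all 12 channels of the 6 arrays. Nr1i3, which encodes CAR, stood at a log2 ratio of 0.79 (WT liver over CAR-KO liver) and 1.81 (tumour over CAR-KO liver). Whether its probe reads the deleted stretch is not known here, so these ratios check no genotype. The CAR-KO liver RNA shared by all arrays stood apart in 2 of 3 tested skeletal muscle markers. Tnnc2, a fast muscle troponin, had log2 ratios of -1.78 in WT liver over CAR-KO liver, 1.78 for PB over DEN alone and -1.83 in tumour over CAR-KO liver, and Mylpf, a muscle myosin light chain, had -0.87, 0.89 and -1.25. For Tnnc2 and Mylpf the shared RNA was the higher side each time. Both were called in tumour over CAR-KO liver, only Tnnc2 in WT liver over CAR-KO liver, and neither for PB over DEN alone. Ckm, a muscle creatine kinase, had 0.29, 0.09 and -0.05 in the same order, with no call. The part of the shared RNA in the ratios of clock genes was not tested. The dye-swapped arrays of a pair, with each ratio turned to the same direction, correlated across all probes at r = 0.03 for WT liver over CAR-KO liver, -0.35 for PB over DEN alone and 0.39 for tumour over CAR-KO liver.

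Signal set what could be seen of each clock gene. Net signals below are spot means minus local background, and they compare channels of 1 probe, not levels of different genes. As a yardstick, the 95th percentile of 162 negative-control spots lay between 33 and 136 in Cy3 and between 9 and 21 in Cy5, depending on the array. Dbp was far above it everywhere, with net signals of 1286 to 5603 in Cy3 and 1295 to 3788 in Cy5, its lowest channel at 10.4 times the yardstick. Per2 (252 to 753 in Cy3), Per3 (166 to 477), Clock (156 to 244) and Tef (152 to 229) also exceeded it in all 12 channels. These 5 of 10 genes compare with 48.0% of all tested probes. The other genes were dimmer in Cy3. Cry2 exceeded the yardstick in 1 of 6 Cy3 channels, Npas2 in 2, Arntl in 3, Cry1 in 4 and Per1 in 5, and all of them did in 6 of 6 Cy5 channels. The scanner software's own flag was more lenient and called 8 genes well above background in 12 of 12 channels, Npas2 in 11 and Arntl in 10, and none was saturated.

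**Figure D1:**
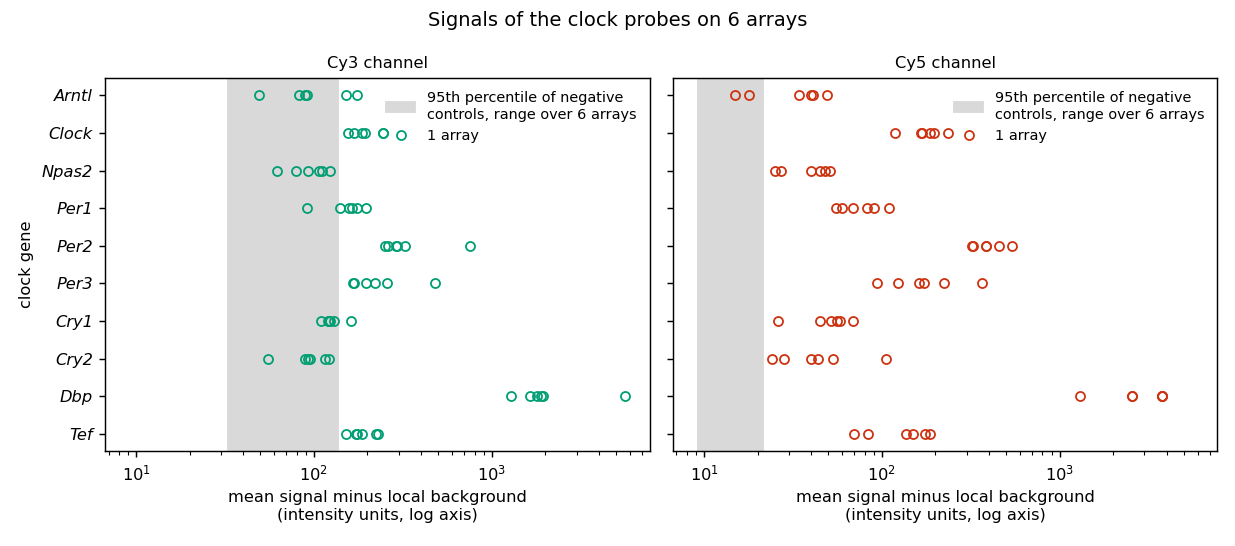
Net signal (spot mean minus local background, log axis) of each clock gene's probe in the 6 Cy3 and 6 Cy5 channels, with the range over arrays of the 95th percentile of negative controls. Dbp lies far above that range in both dyes, while Cry2, Npas2, Arntl and Cry1 lie within it in many Cy3 channels.

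No clock gene passed the test in any of the 4 comparisons. Every log2 ratio is of the first-named RNA over the second, and a call is a limma p, adjusted by Benjamini-Hochberg over all probes tested, under 0.05. Ratios of 1 array are given as turned and still carry the gene's dye effect, fitted between -0.20 and 0.21, which cancels in the fitted ratio. In WT liver over CAR-KO liver 0 of 10 were called, against 0.101% of 20743 probes (0.0916% higher and 0.00964% lower), and 0 of 10 had an unadjusted p under 0.05. In CAR-KO liver given DEN and PB over DEN alone 0 of 10 were called, against 0% of 20742 probes, and again 0 of 10 had an unadjusted p under 0.05. In tumour over CAR-KO liver 0 of 10 were called, against 3.36% of 20744 probes, and 2 of 10 (Per2 and Cry2) had an unadjusted p under 0.05. The indirect tumour over WT liver called 0 of 10, against 0% of 20743 probes, with 0 of 10 at an unadjusted p under 0.05. Over all probes 471, 565, 4858 and 1737 had an unadjusted p under 0.05 in these comparisons, in the order given.

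The ratios of the clock genes were also of ordinary size for these arrays. Their median absolute log2 ratio was 0.08 in WT liver over CAR-KO liver, where that of all tested probes was 0.09. It was 0.12 against 0.09 for PB over DEN alone, 0.30 against 0.23 in tumour over CAR-KO liver and 0.22 against 0.23 for the indirect comparison. None of the 10 reached the 95th percentile of all probes' absolute ratios in any comparison, which was 0.34, 0.37, 0.85 and 0.77 in the same order. What the test leaves possible is given by limma's 95% intervals, which for all 10 genes lay within a 2-fold change in each of the 3 direct comparisons. The widest bounds there were 1.61-fold for Arntl, 1.66-fold for Per2 and 1.85-fold for Per1. In the indirect comparison 8 of 10 intervals lay within 2-fold, and those of Per1 (up to 2.05-fold) and Cry1 (down to 0.499-fold) did not. These bounds hold for the background offset of 50, which draws ratios of dim probes towards 0. With an offset of 0, chosen after seeing the data, 6 of 10 intervals lay within 2-fold in WT liver over CAR-KO liver, 6 for PB over DEN alone, 3 in tumour over CAR-KO liver and 1 in the indirect comparison, and the Per1 bound in tumour over CAR-KO liver was 4.09-fold. The signals processed by the Agilent software gave the same counts, with bounds up to 4.44-fold (Npas2, WT liver over CAR-KO liver) in the direct comparisons. Under these settings a 2-fold change cannot be set aside. In tumour over CAR-KO liver and in the indirect comparison this includes genes that were not dim.

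**Figure D2:**
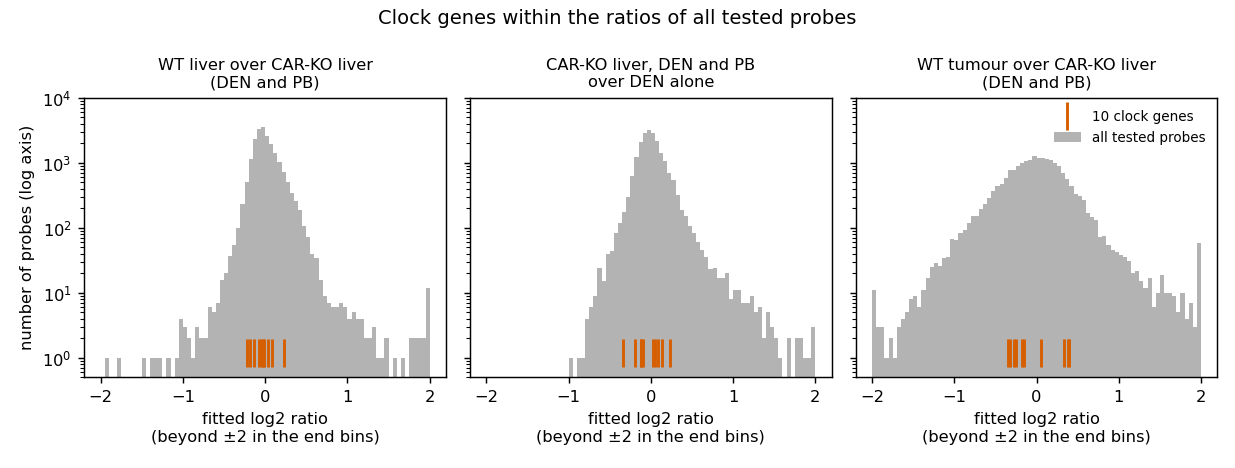
Distribution of fitted log2 ratios of all tested probes in the 3 direct comparisons, with the 10 clock genes marked. The clock genes lie inside the bulk of each distribution, from -0.35 to 0.39 in tumour over CAR-KO liver and from -0.22 to 0.23 in WT liver over CAR-KO liver.

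Dbp is the most direct reading of the loop's output that the arrays hold, because its signal was far from background. In WT liver over CAR-KO liver its turned log2 ratios were -0.13 and 0.02 on arrays 1 and 2, fitted as -0.06 ± 0.17 (SE, 2 arrays, 95% interval -0.45 to 0.34). For PB over DEN alone they were 0.01 and 0.44, fitted as 0.23 ± 0.17 (interval -0.16 to 0.62). Both intervals include 0. In tumour over CAR-KO liver its ratios were -0.17 and -0.14, fitted as -0.16 ± 0.17 (interval -0.55 to 0.24, adjusted p = 0.602), and the indirect tumour over WT liver value was -0.10 ± 0.24. These tumour ratios follow loess normalization, which sets each spot against spots of like brightness. Before it, the Dbp net signal on array 1 was 3748 in tumour (Cy5) against 1949 in CAR-KO liver (Cy3). On array 2 it was 5603 in tumour (Cy3) against 3788 in CAR-KO liver (Cy5). Cy5 against Cy3 was also 2545 against 1286 and 2565 against 1635 on arrays 1 and 2 of the WT liver pair. For PB over DEN alone it was 3773 against 1798 on array 1 but 1295 against 1903 on array 2. With median centring in place of loess the tumour ratio was 0.50 (adjusted p = 0.0864), so the direction of Dbp in tumour depends on the normalization. Tef, the related output factor, had a ratio of -0.01 on both arrays in WT liver over CAR-KO liver, or -0.13 and 0.10 with the dye effect removed. It was fitted at 0.13 ± 0.16 for PB over DEN alone and at -0.17 ± 0.16 in tumour over CAR-KO liver. In the tumour pair its arrays gave -0.39 and 0.04, or -0.27 and -0.07 with the dye effect removed.

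The activators Arntl, Clock and Npas2 had negative ratios in WT liver over CAR-KO liver, none of them past the test. Arntl gave -0.06 and -0.38 on the arrays (-0.22 ± 0.20), Clock -0.18 and -0.18 (-0.18 ± 0.17) and Npas2 -0.43 and 0.17 (-0.13 ± 0.18). With the dye effect removed Arntl had -0.22 on both arrays, Clock -0.04 and -0.33, and Npas2 -0.36 and 0.10. Clock had -0.19 and -0.52 in tumour over CAR-KO liver (-0.35 ± 0.17, adjusted p = 0.244). Arntl had -0.69 and 0.15 there (-0.27 ± 0.20, adjusted p = 0.438), which with the dye effect removed were -0.53 and -0.01, with net signals of 40 in tumour (Cy5) against 174 in CAR-KO liver (Cy3) on array 1 and 49 in tumour (Cy3) against 15 in CAR-KO liver (Cy5) on array 2. Npas2 had 0.02 and 0.09 (0.06 ± 0.18). For PB over DEN alone the activators were fitted at 0.09 (Arntl), -0.20 (Clock, arrays 0.06 and -0.46) and -0.12 (Npas2). Arntl and Npas2 were dim in Cy3, and the strictest filter on dim probes left both out.

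Per1, Per2 and Per3, the period genes of the loop's repressing arm, did not move together. Per2 had 0.69 and 0.09 on the arrays for tumour over CAR-KO liver, fitted as 0.39 ± 0.17 (1.31-fold, interval 0.00 to 0.77, unadjusted p = 0.0493, adjusted p = 0.212). Per1 had 0.58 and 0.09 (0.33 ± 0.24, adjusted p = 0.428), and Per3 had -0.40 and -0.24 (-0.32 ± 0.15, adjusted p = 0.254). With the dye effect removed Per2 had 0.52 and 0.25, Per1 0.74 and -0.08, and Per3 -0.32 on both arrays, so Per2 and Per3 kept their signs on both arrays and Per1 did not. Without array 2 of the tumour pair Per1 was called at 0.95 (adjusted p = 0.00949), with 22.7% of all probes called, and without array 1 it was at -0.28. With median centring Per2 was called at 0.68 (adjusted p = 0.0254), with 19.9% of all probes called.

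For PB over DEN alone Per2 had -0.18 and -0.51 (-0.34 ± 0.17, unadjusted p = 0.0739), or -0.35 and -0.34 with the dye effect removed. This was the largest absolute ratio of a clock gene in that pair, where the adjusted p of every clock gene was 0.99999. Per1 there had -0.52 and 0.29, opposite signs on the dye-swapped arrays, and Per3 had -0.09 and 0.20. In WT liver over CAR-KO liver Per2 had -0.00 and 0.07 (0.03 ± 0.17), Per1 0.41 and -0.25 (0.08 ± 0.24) and Per3 -0.05 and -0.09 (-0.07 ± 0.15). Per1 kept opposite signs on the arrays of both pairs with the dye effect removed (0.25 and -0.09 in WT liver over CAR-KO liver, -0.36 and 0.13 for PB over DEN alone).

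The cryptochromes Cry1 and Cry2, partners of the period proteins in repression, pointed in opposite directions in tumour over CAR-KO liver. Cry2 had 0.76 and 0.03 (0.39 ± 0.17, 1.31-fold, unadjusted p = 0.0473, adjusted p = 0.208), and its net signals were 106 in tumour (Cy5) against 116 in CAR-KO liver (Cy3) on array 1 and 55 in tumour (Cy3) against 24 in CAR-KO liver (Cy5) on array 2. Cry1 had -0.49 and -0.01 there (-0.25 ± 0.16, adjusted p = 0.380). With the dye effect removed these were 0.55 and 0.23 for Cry2 and -0.29 and -0.21 for Cry1, the same sign on both arrays. Cry1 was positive in WT liver over CAR-KO liver, at 0.31 and 0.15 (0.23 ± 0.16, adjusted p = 0.99999), which leaves the indirect tumour over WT liver ratio at -0.48 ± 0.23 (0.719-fold, interval 0.499-fold to 1.04-fold, adjusted p = 0.597). That is the largest absolute fitted ratio of any clock gene in the 4 comparisons. Cry2 was near 0 in the other pairs, at -0.03 in WT liver over CAR-KO liver and 0.03 for PB over DEN alone, and Cry1 was at -0.09 for PB over DEN alone.

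**Figure D3:**
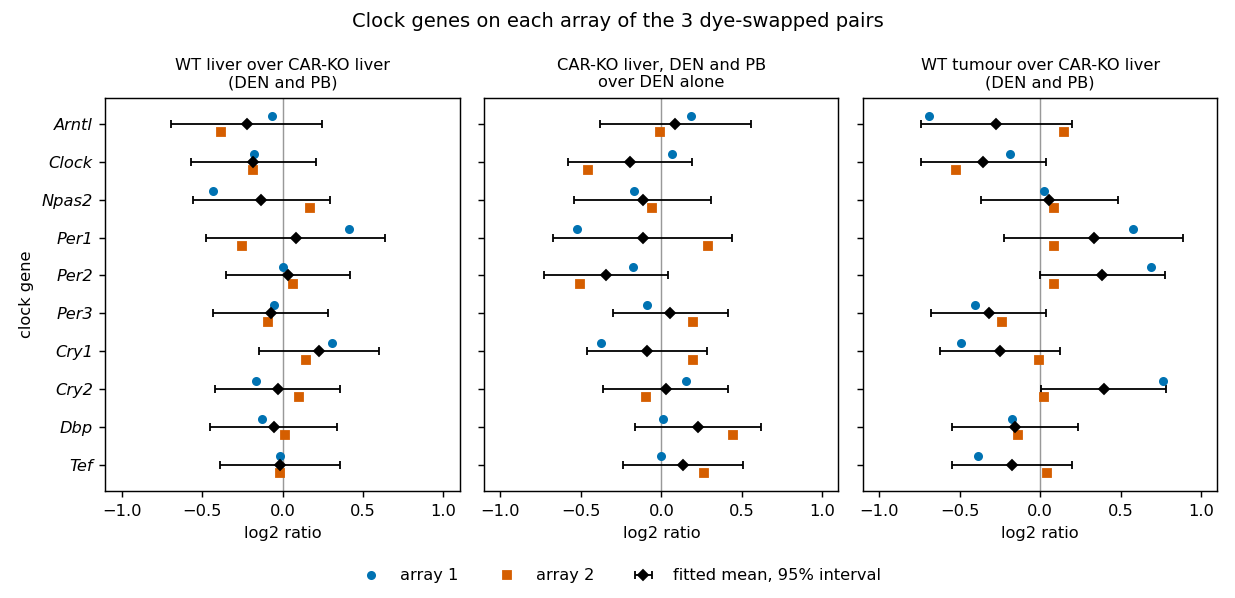
Turned log2 ratio of each clock gene on array 1 and array 2 of the 3 pairs, with the limma fit and its 95% interval, genes ordered by role. In tumour over CAR-KO liver 8 of 10 genes have the same sign on both arrays, while in the other pairs the arrays agree in sign for 5 and 4 of 10 (8, 4 and 5 with the dye effect removed).

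By role, the 3 activators had medians of -0.18 in WT liver over CAR-KO liver, -0.12 for PB over DEN alone and -0.27 in tumour over CAR-KO liver. The 5 repressors had medians of 0.03, -0.09 and 0.33, and the 2 output factors of -0.03, 0.18 and -0.16, in the same order. All 10 genes together had medians of -0.04, -0.03 and -0.16, against -0.02, -0.01 and -0.01 for all tested probes. The activator median in tumour is the value of Arntl, the repressor median that of Per1, and the output median rests in part on Dbp. Each of these genes turned sign under an alternative (0.11 for Arntl and -0.28 for Per1 without array 1, 0.50 for Dbp with median centring).

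Of 29 other genes of the clock and its modifiers, 17 were matched to a probe here and tested. None was called in WT liver over CAR-KO liver, for PB over DEN alone or in the indirect comparison. In tumour over CAR-KO liver 1 rose and 0 fell, beside 2.53% and 0.839% of all probes. The 1 was Csnk1e, casein kinase 1 epsilon, which phosphorylates the PER proteins and sets how long they last. It had 1.30 and 1.003 on the arrays (1.15 ± 0.16, 2.22-fold, adjusted p = 0.0121). Its ratio was 0.30 on both arrays in WT liver over CAR-KO liver, and it was 0.85 ± 0.23 in tumour over WT liver (adjusted p = 0.429). The tumour call held in 12 of 16 alternatives, with adjusted p between 0.00115 and 0.218. Nr1d2, a REV-ERB receptor, had -0.20, -0.05 and -0.32 in the 3 direct comparisons. Nfil3, a repressor at D-boxes, had -0.20, 0.31 and -0.36, also with no call. The list's medians were -0.02, 0.06 and 0.02. Its ratios ran from -0.22 to 0.50, from -0.33 to 0.73 and from -0.46 to 1.15, in the same order. Each upper end lay above the 95th percentile of all probes' absolute ratios (0.34, 0.37 and 0.85).

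Time of collection also shows in genes of the daily hormone and feeding cycle, so these were read beside the clock. Of 10 glucocorticoid targets 8 were tested, and 0 were called in WT liver over CAR-KO liver or for PB over DEN alone, where 0.101% and 0% of all probes were. All 8 ratios were negative in WT liver over CAR-KO liver, with a median of -0.23, against -0.02 for all probes. Against CAR-KO liver, 2 of 8 fell and 0 rose in tumour, beside 0.839% and 2.53% of all probes. They were Errfi1, a feedback inhibitor of EGF receptor signalling (-1.05 ± 0.15, arrays -1.23 and -0.86, adjusted p = 0.0130, called in 9 of 16 alternatives), and Pck1, the gluconeogenic enzyme PEPCK (-1.79 ± 0.16, adjusted p = 0.00194, called in 13 of 16). Of 11 fasting and feeding genes 8 were tested, again with 0 calls outside tumour over CAR-KO liver. There 2 of 8 rose and 2 fell, beside the same 2.53% and 0.839% of all probes. Igfbp1, a binding protein of insulin-like growth factors that fasting raises, rose (2.07 ± 0.17, adjusted p = 0.00148, called in 14 of 16 alternatives). Pdk4, which restrains glucose oxidation in fasting, rose as well (1.38 ± 0.18, adjusted p = 0.00977, called in 12 of 16). G6pc, the last enzyme of glucose release, fell (-1.02 ± 0.19, adjusted p = 0.0364, called in 6 of 16), as did Pck1, which is on both lists. Among these 4 genes of the fasted state, 2 were thus higher in WT tumour than in CAR-KO liver and 2 lower. That pair differs in both tumour and genotype, and the part of each was not tested. In WT liver over CAR-KO liver the signs were the same, with no call (Igfbp1 0.57, Pdk4 0.32, G6pc -0.44, Pck1 -0.54). The indirect tumour over WT liver ratios also kept these signs, with no call. They were 2.84-fold (Igfbp1), 2.09-fold (Pdk4), 0.669-fold (G6pc) and 0.419-fold (Pck1), with adjusted p from 0.207 to 0.597.

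Markers of other cells are given for the tumour pair, where these calls lie and where 2.53% of all probes were called higher and 0.839% lower. Of 4 tested cholangiocyte markers 1 was higher in WT tumour than in CAR-KO liver (Krt19, 1.13 ± 0.16). Of 3 stellate markers 1 was lower (Dcn, -1.34 ± 0.20), and of 3 skeletal muscle markers 2 were lower (Tnnc2 and Mylpf, given above). In WT liver over CAR-KO liver 1 marker of these lists, Tnnc2, was called (lower), and for PB over DEN alone 0 were. No marker of endothelium, macrophages, lymphocytes, neutrophils or pancreatic acini was called in any comparison. The part of cell makeup in the ratios was not tested, and in bulk RNA fewer cells of a type and less RNA per cell cannot be told apart.

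Cry1, as the clock gene with the largest fitted ratio, was also used to look for genes with a like pattern. Over 6 arrays and 9850 named genes, the smallest root-mean-square differences of turned log2 ratios from Cry1 were those of Cldn1 (0.09), Sspn (0.10), Slc27a1 (0.10), Arl2 (0.10) and Crabp1 (0.11). The nearest clock genes were Tef at rank 255 and Per3 at rank 377, so no other clock gene was among the genes closest to Cry1. The turned ratios still carry the dye effect, and this order describes these 6 arrays only.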

How the data were processed

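Agilent 2-colour arrays measured mouse liver and tumour RNA (6 arrays, 3 dye-swapped pairs). Per the file headers, the deposited spot means and background medians are intensity values from Agilent Feature Extraction 7.1.1 (5 arrays) or 7.5.1 (1 array), while the submitters' processing notes name 7.5. The deposited log10 ratio of red over green and the deposited value table are the same numbers (largest difference 0). Deposited flags mark control, outlier, saturated and well-above-background spots.

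From the deposited intensity values, signals were corrected by normexp (offset 50), normalized by loess within arrays and fitted with limma 3.58.1 (R 4.3.3) on all 6 arrays, with a coefficient for each of 3 contrasts and for the dye (2 residual plus 5.48 prior degrees of freedom). The log2 ratios were turned so that the first-named RNA is on top. Of 22393 spots, 1075 were controls, and the rest gave 20868 probes, of which 20744 were tested, each being well above background in 1 channel or both on 2 or more arrays. Outlier spots were left out. Benjamini-Hochberg adjustment ran over all tested probes. Probes were named through RefSeq accessions (8947), symbols in descriptions (408) or older symbols (840), and 10673 had no name. Groups came from the labels. The number of arrays limits the precision.

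The members and lists were chosen with earlier results of these data known. All members are named, other clock genes and the hormone and feeding lists where called, with Nr1d2 and Nfil3 always. The rule showed promoters only for called members, of which there were none, so the stretches printed were chosen after values were seen, for their motifs, as were the offset of 0 and the negative-control yardstick. Alternatives were other background corrections, normalizations, filters and weights, no dye effect, each pair alone and each array left out.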

Additional observations from a re-analysis of the deposited data

How the results depend on the processing

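Over 16 alternatives for each direct comparison and 15 for the indirect one, 588 of 622 recomputed ratios of clock genes kept their sign and 34 had the other. Many of these ratios could not change in this balanced dye-swapped design, so the share that kept its sign does not measure stability. Fixed in the direct comparisons were those under Aquantile, other filters, array weights, no dye effect, the pair alone and an array of another pair left out. The same holds for Csnk1e and the hormone and feeding genes, so their counts of alternatives with a call do not measure stability either. The number of clock genes called in tumour over CAR-KO liver was 1 with median centring (Per2), and 0 to 1 when arrays were left out in turn (Per1, without array 2 of the tumour pair). It was 0 in the other comparisons under every alternative that was run. The count over all probes moved far more in the tumour pair, where 0% (signals processed by the Agilent software) to 22.7% (1798 higher and 2909 lower, without array 2) of probes were called. Median centring gave 2370 higher and 1763 lower there, against 524 and 174 with loess. The indirect comparison called 10.4% of probes without array 2 of the tumour pair, among them Csnk1e (adjusted p = 0.0245). The cause was not tested. An offset of 0, chosen after seeing the data, widened the median absolute ratio of clock genes in tumour to 0.45, with 0 called. Aquantile normalization changed no ratio, and the strictest filter kept 8 of the 10 genes.

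No paired analysis was possible because the numbers 1 and 2 of the arrays follow the order of deposit and no label, so they tie no array of one pair to an array of another. Each array already sets its RNAs against each other. Depth of signal limits Cry2, Npas2, Arntl, Cry1 and Per1, whose Cy3 channels were partly within the range of the negative controls, so their ratios are drawn towards 0 by the offset.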
